A study of Homo sapiens with 11 samples.

Results

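The 43 genes described here make the machinery that copies DNA and the controls that start it at the G1-S boundary of the cell cycle. They were taken as a named list, and for each gene the probe with the highest mean over the 11 arrays of the series was read. Of the 43 genes, 42 had a probe that passed the filter on dim probes, out of 22139 features tested in all. CCNE2, the second E-type cyclin, did not pass, because its probe lay above the noise limit on 0 of 11 arrays, between 7.31 and 7.34 on the log2 scale. GINS1 passed narrowly, with 4 of 11 arrays above the limit, and its changes cannot be told from noise.

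The samples were MDA-MB-231 cells, an established human line of triple-negative breast adenocarcinoma, profiled on single-colour Illumina bead arrays. Control cells received the AllStars Neg. Control siRNA and the others a single siRNA against MASTL, all delivered with the lipid reagent Lipofectamine RNAiMAX, for 24 h or 48 h. At 24 h 3 arrays held control RNA and 2 held RNA of MASTL siRNA cells, and at 48 h each siRNA had 3 arrays. All cells carried a transfected siRNA, no untransfected cells were analysed here, and since 1 siRNA was used, a change may belong to that siRNA and not to the loss of MASTL. Replicates are numbered in the labels, with no statement that each was a culture of its own. The p-values therefore describe the spread between these arrays, which may be technical, and the small number of arrays limits precision.

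MASTL encodes the Greatwall kinase, which restrains the phosphatase PP2A-B55 when cells enter mitosis. Its siRNA is given in the labels as the following sequence, shown because it is the only agent that separates the groups.
MASTL siRNA: acgccttattctagcaaatta
MASTL RNA read 8.74, 8.73 and 8.64 on the 24 h control arrays and 7.61 and 7.69 on the MASTL siRNA arrays, in normalized log2 units. By 48 h it read 8.41, 8.42 and 8.72 in controls and 7.54, 7.53 and 7.67 under the MASTL siRNA. The groups did not overlap at either time, and MASTL fell by 1.05 at 24 h (SE 0.091, limma adjusted p = 0.00137) and by 0.93 at 48 h (SE 0.082, adjusted p = 0.00117). Its other probe read -0.62 and -0.58. The identity of the line was checked with fixed markers. All 5 genes listed for the line, VIM, CD44, EGFR, KRT8 and KRT18, were above the limit on all 11 arrays. Of these, KRT8 and KRT18 are epithelial keratins and do not mark a basal or mesenchymal type. Of the 6 luminal and hormone receptor markers, ERBB2 (8.79 to 9.26), EPCAM (8.99 to 9.60) and GATA3 (7.49 to 7.66) were also above it on all 11. The oestrogen receptor ESR1 was above it on 1 array, and PGR and CDH1 on 0. The leukocyte markers PTPRC and CD3E and the endothelial markers CDH5 and VWF were above it on 0 arrays, whereas CD14 (7.90 to 8.93) and PECAM1 (7.46 to 8.02) were above it on all 11.

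DNA is copied only after replication origins have been licensed. The origin recognition complex, CDC6 and CDT1 load the MCM helicase ring in G1, geminin blocks reloading, and CDC45 and the GINS complex then turn the ring into the active helicase. Cyclin E with its kinase and the E2F factors open the G1-S transition, and E2F factors drive transcription of most genes listed here, so that their RNA is known to be highest in cells about to enter or passing through S phase. Polymerases alpha, delta and epsilon, the sliding clamp PCNA and its loader RFC copy the strands, FEN1 and LIG1 join the lagging strand, ribonucleotide reductase, thymidylate synthase and thymidine kinase supply nucleotides, and CAF-1 and UHRF1 restore nucleosomes and DNA methylation behind the fork.

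The promoters of the members were searched for E2F-type sites, because E2F is the regulator these genes share. RefSeq promoter sequences of build GRCh38.p14 were matched by symbol for 38 of the 43 genes. For genes with several annotated starts the start listed first was used. The motifs TTTGGCGC, TTTCCCGC, TTTGCCGC and TTTCGCGC were searched on both strands in the 250 bases before the start, and matches of different motifs may overlap. At least 1 match was present in 15 of the 38 members (39.5%), against 761 of 27305 promoters of all genes (2.79%). The CCAAT box, searched as CCAAT on both strands, was found in 21 of the 38 (55.3%) and in 9021 of all (33%). Windows of 120 bases up to the start are shown for 5 members whose values are described below, written in the direction of the gene, with the E2F-type match in capitals.
TYMS, chr18:657533-657652, plus strand: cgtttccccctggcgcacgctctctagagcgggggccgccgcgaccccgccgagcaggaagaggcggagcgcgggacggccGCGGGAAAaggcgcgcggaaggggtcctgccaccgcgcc
UHRF1, chr19:4909381-4909500, plus strand: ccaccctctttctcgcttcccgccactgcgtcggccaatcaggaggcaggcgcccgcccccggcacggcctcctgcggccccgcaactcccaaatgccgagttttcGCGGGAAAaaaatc
CDT1, chr16:88803669-88803788, plus strand: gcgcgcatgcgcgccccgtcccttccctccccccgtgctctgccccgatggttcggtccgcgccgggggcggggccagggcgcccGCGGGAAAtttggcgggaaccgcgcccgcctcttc
GINS2, chr16:85688955-85689074, minus strand: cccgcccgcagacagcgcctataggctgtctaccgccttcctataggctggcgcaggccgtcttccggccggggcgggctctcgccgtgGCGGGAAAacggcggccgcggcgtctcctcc
MCM6, chr2:135876444-135876563, minus strand: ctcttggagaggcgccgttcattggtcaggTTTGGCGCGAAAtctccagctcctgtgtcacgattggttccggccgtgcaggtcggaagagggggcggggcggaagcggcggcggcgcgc
The match began 39 bases before the start in TYMS, 14 in UHRF1, 35 in CDT1 and 31 in GINS2. The capitals of MCM6 hold 2 overlapping matches, which lie on opposite strands. A match is a run of letters, and no binding was measured here.

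The effect of the MASTL siRNA on these genes was small against the spread between arrays. Of the 42 genes tested, 0 were called at either time or on average over both, a call being a limma adjusted p under 0.05 over all features. Over all features 0.894% were called at 24 h, 2.34% at 48 h and 4.67% for the average. The median log2 change of the 42 genes was 0.021 at 24 h and 0.0082 at 48 h, beside 0.0030 and 0.0012 over all features. Its sign depended on single arrays, and at 24 h it was -0.037 without control 24 h replicate 2. At an unadjusted p under 0.05 there was 1 member at 24 h (TYMS), where 9.09% of all features passed. There were 2 members at 48 h (TYMS and MCM5; 14% of all features) and 3 for the average (TYMS, MCM5 and MCM2; 16.7%). The shares of members were thus below those of all features. RNA from whole cultures does not tell fewer cells expressing a gene from less RNA per cell.

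These values bound the effect for most members. The 95% interval of the change lay within 1.5-fold either way for 35 of the 42 genes at 24 h (94.9% of all features), for 39 at 48 h (95.2%) and for 41 for the average (97.6%). UHRF1 was the exception for the average. The intervals of the members were wide: their median SD within a group was 0.19, against 0.047 over all features, of which many lay near the noise limit.

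**Figure D1:**
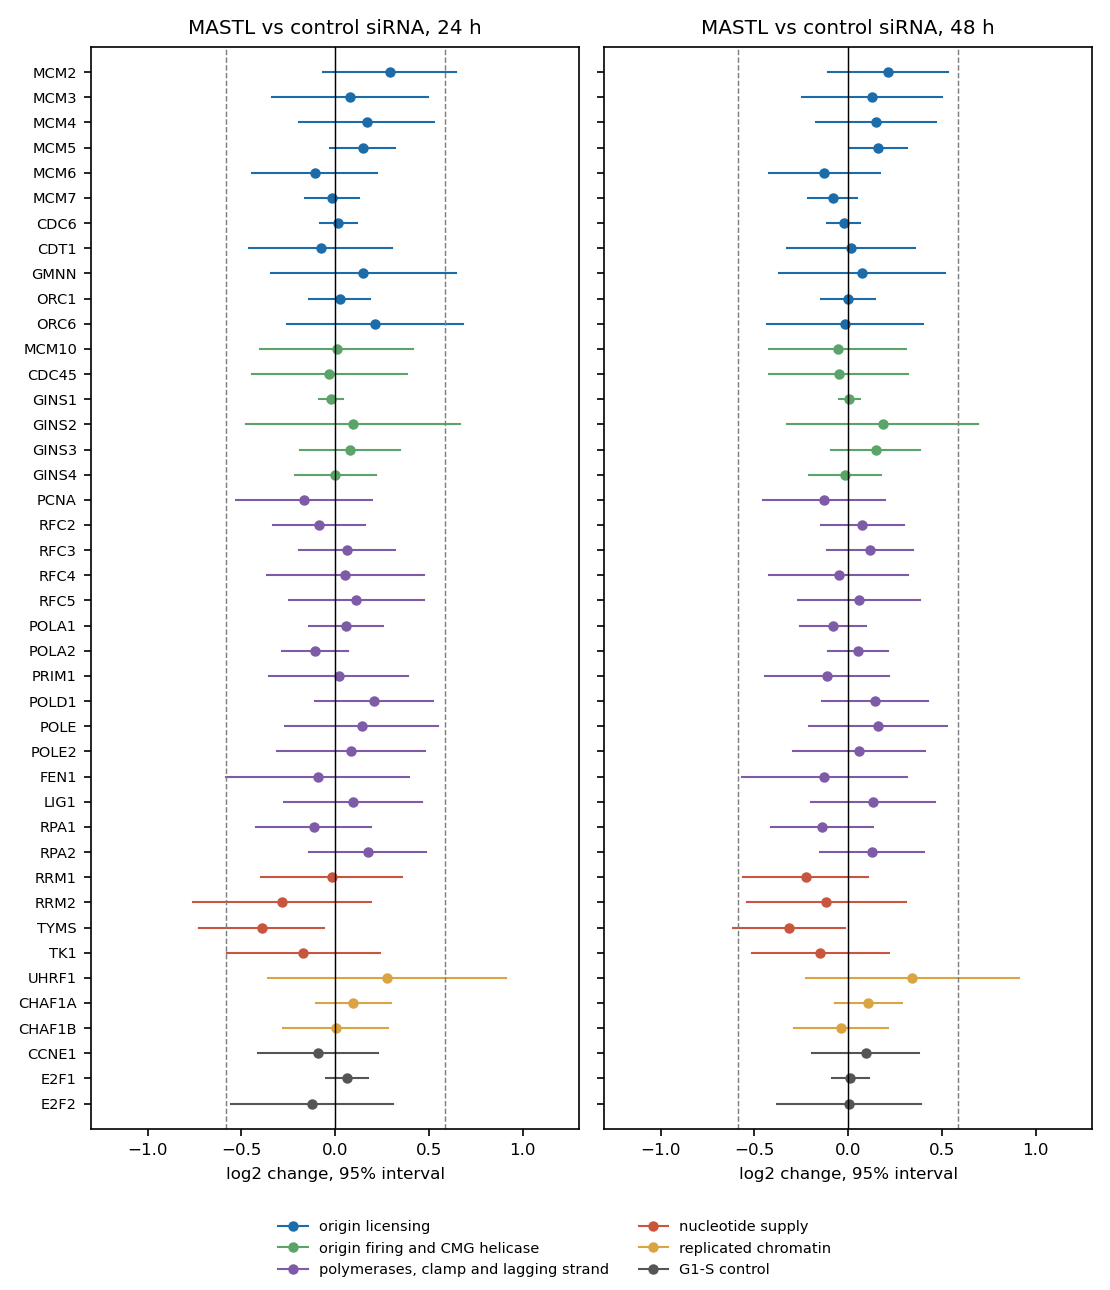
Log2 change of each of the 42 genes under MASTL siRNA against control siRNA at 24 h (left) and 48 h (right), with its 95% interval from limma, coloured by role; dashed lines mark 1.5-fold. Most intervals cover 0, those of TYMS lie below 0 at both times, and all 4 nucleotide supply genes have negative values at both times.

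Over all 42 genes, 26 changes were positive at 24 h (52.6% of all features) and 23 at 48 h (51.1%). These counts turned on single arrays. Without control 24 h replicate 2, 14 of 42 were positive at 24 h (52.3% of all features). At 48 h it was 35 without MASTL siRNA 48 h replicate 1 (50.9%) and 13 without MASTL siRNA 48 h replicate 4 (50.2%). Among the 11 origin licensing genes, 8 were positive at 24 h, or 5 without control 24 h replicate 2. At 48 h 6 were positive, ranging from 3 without MASTL siRNA 48 h replicate 4 to 9 without MASTL siRNA 48 h replicate 1, and 0 were called. MCM2, a subunit of the MCM ring, read 8.79, 8.83 and 8.81 on the 24 h control arrays and 9.26 and 8.94 under MASTL siRNA. The 48 h control arrays read 8.40, 8.52 and 8.69, and the MASTL siRNA arrays 8.43, 8.88 and 8.94 under MASTL siRNA. The groups separated at 24 h and overlapped at 48 h. Its change was 0.29 at 24 h (SE 0.16, limma adjusted p = 0.677) and 0.21 at 48 h (SE 0.14, adjusted p = 0.588). The value on average was 0.25 (adjusted p = 0.27), and it passed the threshold when MASTL siRNA 48 h replicate 1 was left out (0.33, adjusted p = 0.0497).

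MCM4, another subunit of the ring, read 10.08, 9.99 and 10.23 in 24 h controls and 10.24 and 10.29 under MASTL siRNA. At 48 h the controls read 9.65, 9.74 and 10.14 and the MASTL siRNA arrays 9.80, 9.95 and 10.22. The separation at 24 h was narrow, and the groups overlapped at 48 h. The change was 0.17 at 24 h (adjusted p = 0.864) and 0.15 at 48 h (adjusted p = 0.75), and a second MCM4 probe gave 0.16 and 0.14. The 48 h value was 0.031 without MASTL siRNA 48 h replicate 4 and 0.29 without control 48 h replicate 4.

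MCM5 read 8.92, 9.08 and 8.89 in 24 h controls, 9.19 and 9.04 under MASTL siRNA, 8.66, 8.68 and 8.80 in 48 h controls and 8.78, 8.91 and 8.94 under MASTL siRNA. Both times overlapped by 1 array. Its change was 0.15 (SE 0.076) at 24 h and 0.16 (SE 0.068) at 48 h, and the average of 0.15 had an adjusted p of 0.157. The 3 other subunits of the ring had smaller or opposite values: MCM3 0.079 and 0.13, MCM6 -0.11 and -0.13, and MCM7 -0.019 and -0.082. The loading factors had small values at both times, CDC6 at 0.015 and -0.024, CDT1 at -0.077 and 0.014 and ORC1 at 0.025 and -0.0017. GMNN, which encodes geminin, gave 0.15 and 0.075. ORC6, a further subunit of the origin recognition complex, gave 0.21 and -0.017.

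The 6 genes of origin firing and the helicase gave no call. GINS2, a subunit of the GINS complex, read 10.05, 9.63 and 10.07 in 24 h controls and 9.95 and 10.07 under MASTL siRNA. On the 48 h arrays it read 9.20, 9.42 and 9.85 in controls and 9.25, 9.75 and 10.02 under MASTL siRNA. The groups overlapped at both times, and the change was 0.095 at 24 h (SE 0.25) and 0.18 at 48 h (SE 0.22). The sign at 24 h rested on control 24 h replicate 2, without which the value was -0.049. GINS3, of the same complex, gave 0.078 and 0.15, from 8.84, 8.66 and 8.82 in 24 h controls, 8.805 and 8.90 under MASTL siRNA, 8.43, 8.51 and 8.69 in 48 h controls and 8.50, 8.68 and 8.90 under MASTL siRNA. Its groups overlapped at both times. CDC45 gave -0.033 and -0.050, MCM10, which helps to activate the helicase, 0.0071 and -0.056, and GINS4 0.00046 and -0.017.

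Of the 15 genes for polymerases, clamp and lagging strand, 10 changes were positive at 24 h and 9 at 48 h, with a median of 0.058 and 0.056. Without control 24 h replicate 2, 5 of the 15 were positive at 24 h and the median was -0.070. At 48 h 4 were positive without MASTL siRNA 48 h replicate 4 and 13 without MASTL siRNA 48 h replicate 1. POLD1, the catalytic subunit of polymerase delta, read 8.35, 8.31 and 8.48 in 24 h controls and 8.62 and 8.56 under MASTL siRNA. On the 48 h arrays it read 8.05, 8.19 and 8.46 in controls and 8.18, 8.35 and 8.601 under MASTL siRNA. The groups separated at 24 h only. The change was 0.21 (SE 0.14, adjusted p = 0.775) and 0.14 (SE 0.12, adjusted p = 0.716). The 48 h value ran from 0.030 without MASTL siRNA 48 h replicate 4 to 0.26 without control 48 h replicate 4.

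POLE, the catalytic subunit of polymerase epsilon, read 8.18, 7.99 and 8.24 in 24 h controls, 8.27 and 8.29 under MASTL siRNA, 7.87, 7.93 and 8.32 in 48 h controls and 7.95, 8.12 and 8.53 under MASTL siRNA. Its change was 0.14 at 24 h and 0.16 at 48 h (adjusted p = 0.912 and 0.767). The 48 h value went to -0.0061 when MASTL siRNA 48 h replicate 4 was left out and to 0.30 without control 48 h replicate 4. The clamp gene PCNA gave -0.17 and -0.13, and the clamp loader genes RFC2, RFC3, RFC4 and RFC5 lay between -0.086 (RFC2 at 24 h) and 0.12 (RFC3 at 48 h). Other RFC3 probes had the opposite sign, -0.11 and -0.019 for 1 and -0.099 and -0.060 for another. The other RFC2 probe also turned, with 0.034 and -0.0031, while that of RFC4 kept its signs, with 0.030 and -0.018. The polymerase alpha and primase genes POLA1, POLA2 and PRIM1 lay between -0.11 and 0.058. FEN1, the flap endonuclease, gave -0.094 and -0.13, and LIG1, DNA ligase I, 0.094 and 0.13. The single-strand binding genes took opposite signs at both times, RPA1 with -0.11 and -0.14 and RPA2 with 0.17 and 0.13, and POLE2, an accessory subunit of polymerase epsilon, gave 0.085 and 0.056.

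All 4 nucleotide supply genes had negative changes at both times, with a median of -0.23 at 24 h and -0.19 at 48 h, and 0 of 4 were called. At 24 h 3 of the 4 were negative when any 1 of the 24 h arrays but control 24 h replicate 2 was left out. At 48 h 2 of the 4 were negative without MASTL siRNA 48 h replicate 1, with a median of -0.052, and 3 without control 48 h replicate 4. TYMS, thymidylate synthase, makes dTMP from dUMP. It read 11.25, 10.99 and 11.32 in 24 h controls and 10.66 and 10.93 under MASTL siRNA. On the 48 h arrays it read 10.74, 11.003 and 11.04 in controls and 10.40, 10.68 and 10.76 under MASTL siRNA. The groups separated at 24 h and overlapped by the lowest control array at 48 h. The change was -0.39 at 24 h (SE 0.15, limma adjusted p = 0.443) and -0.32 at 48 h (SE 0.13, adjusted p = 0.321). The average was -0.36 (95% interval -0.58 to -0.13, limma adjusted p = 0.0894), a level 1.28-fold lower.

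RRM1 and RRM2 encode the large and small subunits of ribonucleotide reductase. RRM1 read 11.89, 11.55 and 12.02 in 24 h controls and 11.76 and 11.84 under MASTL siRNA, a change of -0.020 whose sign turned without control 24 h replicate 1 (0.016), control 24 h replicate 3 (0.079) or MASTL siRNA 24 h replicate 1 (0.022). It was -0.15 without control 24 h replicate 2, and the same-number differences were -0.13 and -0.18. At 48 h it read 11.42, 11.61 and 11.79 in controls and 11.16, 11.38 and 11.59 under MASTL siRNA, a change of -0.23 (SE 0.15, adjusted p = 0.584). The groups overlapped at both times.

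RRM2 read 9.06, 8.56 and 8.95 in 24 h controls, 8.39 and 8.76 under MASTL siRNA, 8.28, 8.49 and 8.79 in 48 h controls and 8.14, 8.47 and 8.599 under MASTL siRNA. Its change was -0.28 at 24 h (SE 0.21) and -0.12 at 48 h (SE 0.19). The 48 h value turned to 0.017 without control 48 h replicate 4 and to 0.015 without MASTL siRNA 48 h replicate 1. TK1, thymidine kinase of the salvage route, gave -0.17 and -0.15. Its sign turned at 24 h without MASTL siRNA 24 h replicate 3 and at 48 h without MASTL siRNA 48 h replicate 1.

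**Figure D2:**
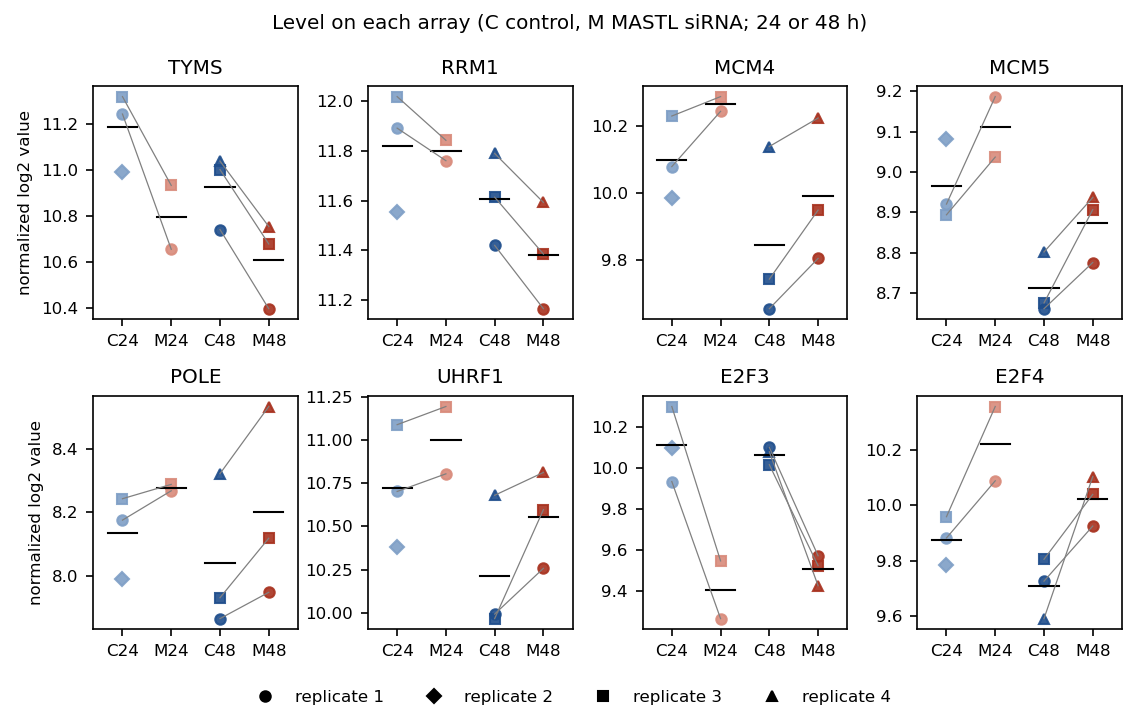
Normalized log2 level of 6 members and of E2F3 and E2F4 on each array; C and M are control and MASTL siRNA, bars are group means, point shapes give the replicate number and grey lines join arrays of the same number within a time. At 48 h the joined arrays of TYMS and RRM1 all run downward and those of MCM4, MCM5, POLE and UHRF1 all run upward.

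Of the replicated chromatin genes, UHRF1, which brings the methyltransferase DNMT1 to newly copied DNA, had the widest spread. It read 10.70, 10.38 and 11.09 in 24 h controls and 10.80 and 11.19 under MASTL siRNA. On the 48 h arrays it read 9.99, 9.97 and 10.68 in controls and 10.26, 10.60 and 10.81 under MASTL siRNA. The groups overlapped at both times. The change was 0.27 at 24 h (95% interval -0.36 to 0.91) and 0.34 at 48 h (-0.23 to 0.91), adjusted p = 0.881 and 0.641, and a second, dimmer probe of UHRF1 gave 0.046 and 0.095. Its 24 h value was 0.080 without MASTL siRNA 24 h replicate 3 and 0.47 without MASTL siRNA 24 h replicate 1.

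CHAF1A, the large subunit of CAF-1, read 8.23, 8.06 and 8.22 in 24 h controls, 8.21 and 8.32 under MASTL siRNA, 7.89, 7.95 and 8.09 in 48 h controls and 7.95, 8.11 and 8.20 under MASTL siRNA. Its change was 0.097 and 0.11, with overlapping groups, and that of CHAF1B, of the same complex, 0.0036 and -0.037. Among the G1-S control genes, E2F2 gave -0.12 and 0.0043, E2F1 0.063 and 0.010 and the cyclin gene CCNE1 -0.094 and 0.093. E2F2 read 8.69, 8.41 and 8.71 in 24 h controls, 8.44 and 8.52 under MASTL siRNA, 8.16, 8.18 and 8.61 in 48 h controls and 8.001, 8.38 and 8.595 under MASTL siRNA. E2F1 lay between 7.50 and 7.67 on all arrays, little above the noise limit of 7.409, so that its folds are understated.

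The share of members whose groups did not overlap was below that of all features. At 24 h it was 5 of 42 genes higher in both MASTL siRNA arrays (MCM2, MCM4, POLD1, POLE and LIG1), where 13.4% of all features did so, and 1 lower (TYMS), against 11.7%. At 48 h it was 0 higher and 0 lower, against 10.2% and 8.56%. The 2 times rest on separate arrays, and the changes of the 42 genes at 24 h and 48 h had a Pearson correlation of 0.767 across genes, beside 0.724 across all features. Genes on the same arrays are not independent replicates. The difference between the 2 times was called for 0 of 42 members and for 0% of all features, and at an unadjusted p under 0.05 for 0 of 42 against 3.03%.

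Arrays of the same replicate number at 48 h deviated together from their group means, with correlations of 0.693, 0.549 and 0.773 across all features, and a fit with the number as a block within each time compared them within pairs. At 48 h that fit called 5 of the 42 members (11.9%), against 12.2% of all features, so that the members took about the background share. RRM1 (-0.23, SE 0.024, limma adjusted p = 0.00429) and TYMS (-0.32, SE 0.041, adjusted p = 0.00816) fell. The same-number differences were -0.26, -0.23 and -0.20 for RRM1 and -0.35, -0.32 and -0.28 for TYMS, for replicates 1, 3 and 4. POLE (0.16, SE 0.032, adjusted p = 0.0298), MCM5 (0.16, SE 0.036, adjusted p = 0.0436) and MCM4 (0.15, SE 0.034, adjusted p = 0.0481) rose, each higher in 3 of 3 pairs. A call from 3 pairs nearly requires the same sign in each, so the signs of the pairs add no support. The change of TYMS, 1.25-fold, was the widest of the 5.

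For the average of both times the blocked fit called 6 of 42 members (14.3%), against 13.5% of all features. It drops the weight of control 24 h replicate 2, which has no partner. TYMS (-0.40, adjusted p = 0.00169) and RRM1 (-0.19, adjusted p = 0.00304) fell, and MCM5 (0.18, adjusted p = 0.0132), POLD1 (0.16, adjusted p = 0.0257), MCM4 (0.13, adjusted p = 0.0325) and POLE (0.11, adjusted p = 0.0385) rose. The pairing at 48 h rests on the values and not on the labels. At 24 h, which also enters this average, the values did not show pairing. Without the block 0 of these members were called.

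The median change of these genes was wider between the times than between the siRNAs. Under control siRNA 41 of the 42 genes had lower mean levels at 48 h than at 24 h, E2F1 being the exception, where 52.1% of all features did. Under MASTL siRNA it was 38 of 42, all but GINS1, RFC2, POLA2 and CCNE1, against 52.2%. The median change was -0.21 under control siRNA and -0.22 under MASTL siRNA, beside -0.0023 and -0.0027 over all features. With the replicate number as a block, 27 members were called under control siRNA and 22 under MASTL siRNA, all lower. Over all features 5.32% and 3.18% were called lower. Whether arrays pair across the times could not be decided. By the test without a block, 0 of 42 genes were called under either siRNA. Over all features it called 0% under control siRNA and 0.00452% under MASTL siRNA. At an unadjusted p under 0.05 there were 4 members under control siRNA (CDT1, MCM5, MCM7 and CHAF1A; 9.87% of all features) and 6 under MASTL siRNA (CDT1, MCM5, MCM7, CDC6, POLA1 and RRM1; 9.57%).

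The licensing genes MCM7, CDT1 and MCM5 are given here because of their values, after these were seen. Others of that role changed less under control siRNA, CDC6 by -0.066 and ORC6 by -0.020. FEN1, of another role, also had all 48 h arrays below all 24 h arrays under both siRNAs. MCM7 read 12.62, 12.50 and 12.51 in 24 h controls and 12.28, 12.34 and 12.29 in 48 h controls. Under MASTL siRNA it read 12.54 and 12.51 at 24 h and 12.10, 12.24 and 12.33 at 48 h. All 48 h arrays lay below all 24 h arrays under both siRNAs. The change was -0.24 (SE 0.057, limma adjusted p = 0.284) and -0.30 (SE 0.064, adjusted p = 0.223).

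CDT1 read 9.82, 9.80 and 9.86 in 24 h controls and 9.10, 9.37 and 9.46 in 48 h controls. Under MASTL siRNA it read 9.69 and 9.80 at 24 h and 8.997, 9.34 and 9.64 at 48 h. The times again did not overlap under either siRNA. The change was -0.51 (SE 0.15, adjusted p = 0.358) and -0.42 (SE 0.17, adjusted p = 0.484), or 1.43-fold and 1.34-fold lower. MCM5 gave -0.25 and -0.24 (adjusted p = 0.322 and 0.399), also without overlap.

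Other roles showed values of like size with more spread. UHRF1 gave -0.51 and -0.44, GINS2 -0.42 and -0.34, FEN1 -0.42 and -0.45, and CDC45 -0.33 and -0.35. The role medians under control siRNA ran from -0.24 for licensing, origin firing and nucleotide supply to -0.15 for the polymerase group, and under MASTL siRNA from -0.25 for licensing and replicated chromatin to -0.030 for the 3 G1-S control genes. The 48 h arrays lay below all 24 h arrays for 7 genes under control siRNA (7.34% of all features) and for 18 under MASTL siRNA (14.9%). The reverse held for 0 genes under control siRNA (6.07%) and for 1 under MASTL siRNA, POLA2 (13%). MCM6, whose promoter is shown above, gave -0.20 and -0.22 with overlapping groups.

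**Figure D3:**
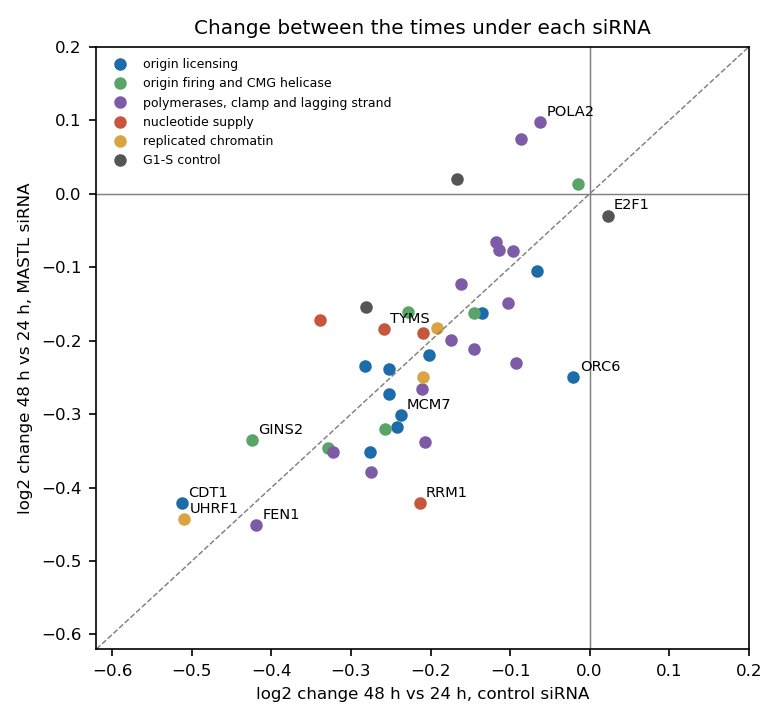
Log2 change from 24 h to 48 h of each of the 42 genes under control siRNA (horizontal) and MASTL siRNA (vertical), coloured by role, with the diagonal dashed. Nearly all points lie below 0 on both axes, with CDT1, UHRF1 and FEN1 below -0.4 on both and GINS1 and E2F1 close to 0. None of the changes passed the test without a block.

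The 2 sets of values come from separate arrays but are not independent. Same-numbered 48 h arrays of the 2 siRNAs deviated together, and these shared deviations enter both sets. The 2 sets correlated at 0.748 across the 42 genes and at 0.689 across all features. Of the 42 genes, 37 had the same sign in both, as did 63.7% of all features. Within replicate numbers the picture was similar, with lower values at 48 h for 39 and 41 genes in control replicates 1 and 3 and for 40 and 39 genes in MASTL siRNA replicates 1 and 3. The median under MASTL siRNA depended on 1 array, and was -0.12 without MASTL siRNA 48 h replicate 1. With only replicates 1 and 3, an alternative chosen after seeing the data, the medians were -0.34 and -0.27. Only those numbers are present at both times under both siRNAs.

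Single arrays moved these genes as a block. Relative to each gene's mean over all arrays, the median deviation of the 42 genes was 0.17, -0.048 and 0.20 on the 24 h control arrays of replicates 1, 2 and 3 and 0.11 and 0.18 on the 24 h MASTL siRNA arrays. At 48 h it was -0.22, -0.14 and 0.061 on the control arrays of replicates 1, 3 and 4 and -0.29, -0.034 and 0.065 on the MASTL siRNA arrays. Both 48 h arrays of replicate 4 were high for their time, and 24 h control replicate 2 was low for its time. The median over all features stayed between -0.0041 and 0.0023.

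The number of members above their own mean ran from 2 of 42 on 48 h control replicate 1 to 40 of 42 on 24 h control replicate 3. What differed between replicate numbers is not given in the sources used here, and its part in the results was not tested. Nucleotide supply was the lowest role on MASTL siRNA 48 h replicate 1, at -0.48.

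**Figure D4:**
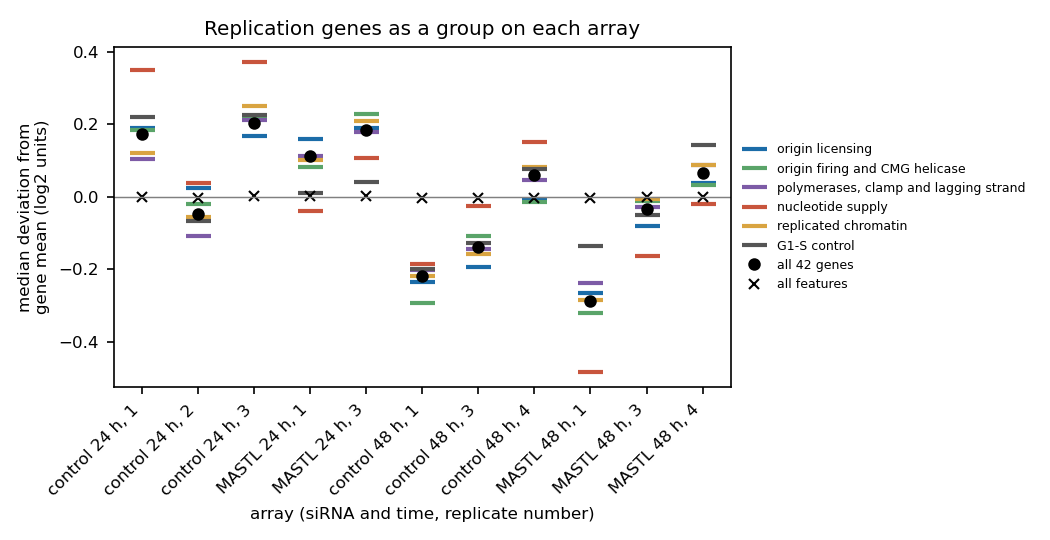
Median deviation from each gene's mean of the 11 arrays, per array (horizontal), in log2 units, for all 42 genes (black points), for each role (coloured bars) and for all features (crosses). The 42 genes run from -0.29 to 0.20 while all features stay at 0, and the 48 h arrays of replicate 4 lie near 0.06 under both siRNAs.

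**Figure D5:**
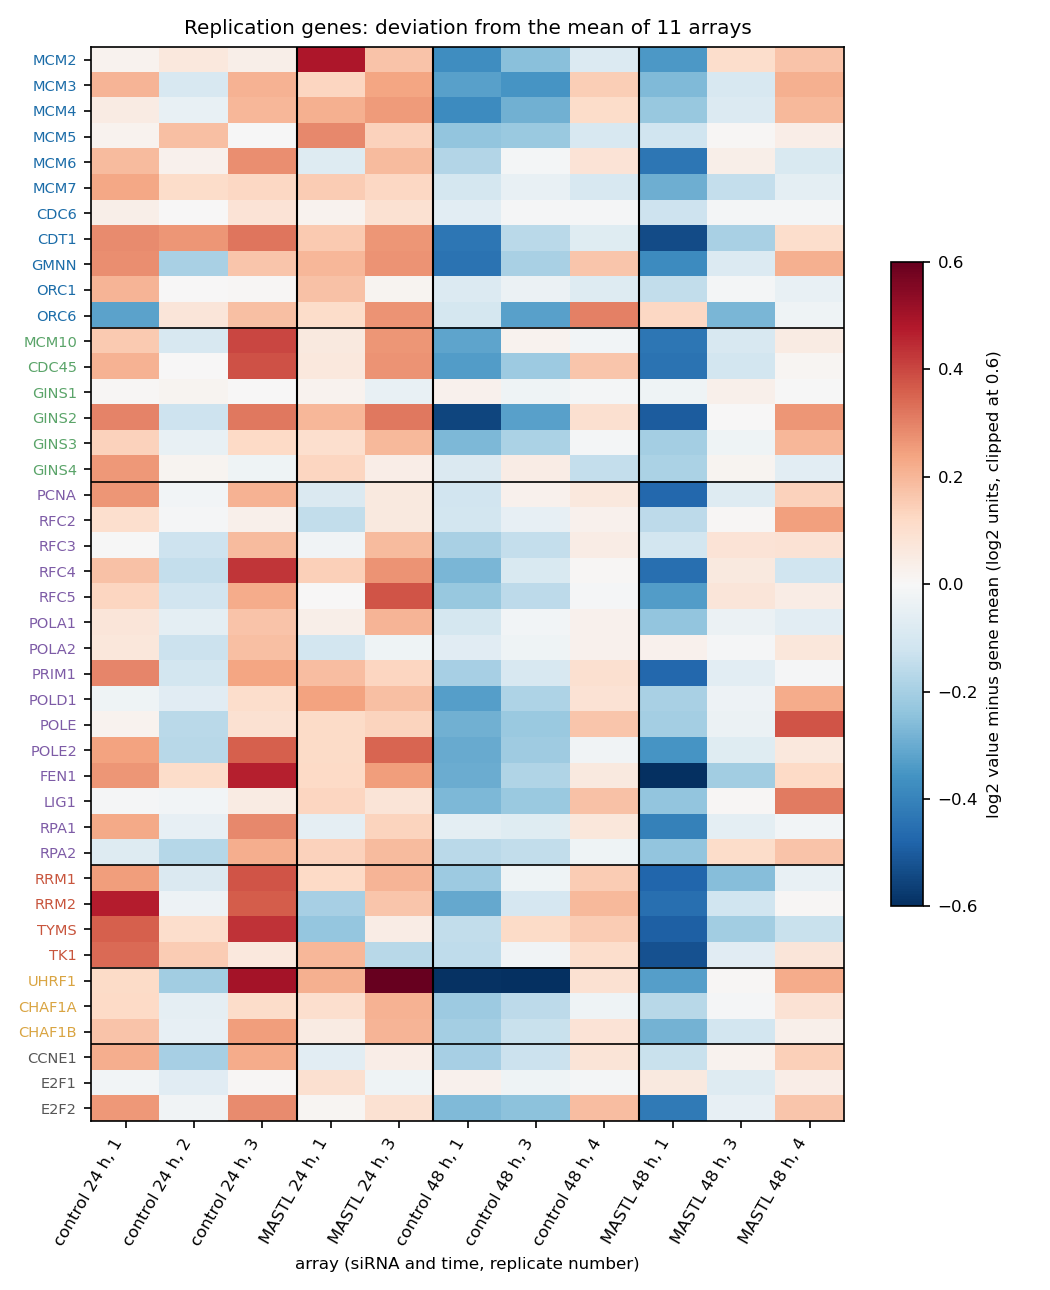
Deviation of each of the 42 genes (rows, grouped and coloured by role) from its mean over the 11 arrays (columns), in log2 units, red above and blue below the mean, clipped at 0.6. Columns of 48 h replicate 1 are blue in nearly all roles under both siRNAs, and columns of 24 h control replicates 1 and 3 are red.

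A second list of 62 genes of the same pathway gave 59 with a tested feature. Like the members, it was chosen with earlier results of these data known. The siRNA comparison called 0 higher and 1 lower at 24 h, 0 higher and 2 lower at 48 h, and 2 higher and 5 lower for the average. Over all features 0.894%, 2.34% and 4.67% were called. For this list, the comparisons between the times called 0. E2F3, an activating E2F factor, was the gene called in all 3. It read 9.93, 10.10 and 10.30 in 24 h controls and 9.26 and 9.55 under MASTL siRNA, and at 48 h 10.10, 10.02 and 10.08 in controls and 9.57, 9.52 and 9.42 under MASTL siRNA. The groups did not overlap at either time. E2F3 fell by 0.71 at 24 h (SE 0.11, limma adjusted p = 0.0248), by 0.56 at 48 h (SE 0.098, adjusted p = 0.0232) and by 0.63 on average (SE 0.074, adjusted p = 0.00204).

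The average call of E2F3 held in all 21 alternatives run, with limma adjusted p up to 0.0298, while over 22 alternatives it reached 0.22 at 24 h and 0.167 at 48 h. Its 24 h call was lost without control 24 h replicate 2, either 24 h MASTL siRNA array or MASTL siRNA 48 h replicate 3, at adjusted p = 0.0532 to 0.19, and its 48 h call without any 1 of the 6 arrays of 48 h, at 0.055 to 0.0953. The E2F family members of the main list, E2F1 and E2F2, were not called.

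The other calls of the second list were for the average. E2F4, a repressive E2F factor, rose by 0.33 (SE 0.064, adjusted p = 0.0221), and the G1 cyclin gene CCND1 by 0.29 (SE 0.058, adjusted p = 0.0247). CDKN1C, a CDK inhibitor gene, fell by 0.14 (SE 0.022, adjusted p = 0.0105), and it was also the second 48 h call, at -0.15 (adjusted p = 0.0377). FBXW7, whose product targets cyclin E for degradation, fell by 0.38 (SE 0.077, adjusted p = 0.0272). Another of its probes gave -0.29 and -0.37 at the 2 times, and a further, dimmer probe (mean 7.46) gave 0.019 and -0.011.

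E2F6, another repressor, fell by 0.20 (adjusted p = 0.043) and RRM2B, a second small subunit of ribonucleotide reductase, by 0.10 (adjusted p = 0.0384). The other probe of RRM2B had the opposite sign, 0.031 and 0.053, and that of E2F6, above the noise limit on 3 arrays, gave 0.011 and 0.0019. Of the 11 arrays left out in turn, the average call was lost in 5 cases for E2F4, 5 for CCND1, 7 for FBXW7, 1 for CDKN1C (MASTL siRNA 24 h replicate 3), 8 for E2F6 and 9 for RRM2B, with adjusted p up to 0.162. CDKN1C and RRM2B lay near the noise limit, between 7.43 and 7.75, where folds are understated.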

How the data were processed

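RNA of 11 samples was hybridised to Illumina bead arrays. Per the submitters' processing notes the authors used lumi, with no version given, and deposited normalized log2 values of 47321 probes, which share 1 set of sorted values and a median of 7.4039. The log2 scale rests on their range of 7.2365 to 14.512, and whether a variance-stabilizing transform was used is not stated; folds near the floor are understated. A further 22 per-sample columns of non-normalized signals and detection p-values name no sample and were not used, so a noise limit replaced the detection p assumed in the design. The most common value, 7.357, was taken as the centre of noise, and the 95th percentile of the values below it, mirrored, gave 7.409. Probes above it on at least 2 arrays were kept, 27309 in all, or 22139 features, of which 14023 were named genes. Of all probes 30113 had 1 symbol, 8 several and 17200 none, and 30074 symbols were updated through the Entrez number.

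The fit used limma 3.58.1 (lmFit, then eBayes) under R 4.3.3 and gave each group a mean over the 11 arrays, with 7 residual degrees of freedom and 1.67 from moderation. P-values were two-sided and Benjamini-Hochberg adjusted over all features, with calls under 0.05. The fit was tested on simulated data in which arrays and genes varied independently. That test does not cover arrays or genes that deviate together, as they did here. Same-numbered arrays were checked for pairing from the correlation of their deviations from group means. The numbers pair the arrays at 48 h (0.693, 0.549 and 0.773). At 24 h the 2 pairs gave 0.104 and 0.47, which are not independent, since 2 arrays of a group deviate by opposite amounts. MASTL siRNA 24 h replicate 1 correlated at 0.331 with control 24 h replicate 2, above the 0.104 with its same-number control. Pairing at 24 h was thus not shown. Across times the correlations ran from -0.301 to 0.161. Replicate 2 is present only at 24 h and replicate 4 only at 48 h, so the group means rest on different numbers. The check therefore cannot decide on pairing across times. Time comparisons in the report rest on the fit without a block, with the counts of the blocked fit beside them. The members, gene lists and tests were chosen with earlier results of these data known. The text names all members by role, with array values for called members and the 2 of largest average change in each role, to which RRM1, MCM5, MCM7 and CDT1 were added after their values were seen, and called genes of the second list. Other probes existed for 16 tested members. Of the 18 such probes that were kept, 5 ran against the probe used at 24 h and 7 at 48 h. Within groups, arrays correlated at 0.99036 to 0.99686 across features. The plots come from matplotlib 3.10.9 (Python 3.11.15).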

Additional observations from a re-analysis of the deposited data

How the results depend on the processing

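The counts of called members were 0 in all 6 comparisons and remained 0 with cyclic loess, with no or a stricter filter, with the mean of a gene's probes, with a trend in eBayes, with array weights and with only the groups compared. Leaving out each array in turn gave 0 to 0 calls at 24 h, at 48 h, for the difference and between the times, and 0 to 1 for the average, the 1 being MCM2 without MASTL siRNA 48 h replicate 1. Only the replicate block and, for time under control siRNA, the use of replicates 1 and 3 alone (3 called, MCM3, MCM4 and CCNE1, all lower, chosen after seeing the data) moved them further. With the replicate block, 2 members were called at 24 h (TYMS and CCNE1, both lower), 4 at 48 h and 5 for the average. With the block within each time it was 3 at 24 h (POLA2, TYMS and CCNE1, all lower), 5 at 48 h and 6 for the average. The values did not show pairing at 24 h. Between the times the check could not decide on pairing. There the replicate block called 27 members under control siRNA and 22 under MASTL siRNA, all lower, against 5.32% and 3.18% of all features called lower. In both blocked fits control 24 h replicate 2 has no partner and drops out, and neither changed a call for the difference. Over all features the calls went from 0.894% to 1.63% and 2.91% at 24 h, from 2.34% to 8.44% and 12.2% at 48 h and from 4.67% to 10.2% and 13.5% for the average, with the replicate block and the block within each time. The SD of the arrays' medians within a group was 0.146, wider than the siRNA medians of 0.021 and 0.0082 themselves. Medians of the members moved by less than that SD in every alternative run, a bound that admits a change of sign. When each array was left out in turn they ran from -0.037 to 0.079 at 24 h, -0.032 to 0.093 at 48 h, -0.016 to 0.039 for the average, -0.098 to 0.086 for the difference, -0.27 to -0.15 for time under control siRNA and -0.29 to -0.12 under MASTL siRNA. MASTL stayed between -1.09 and -1.02 at 24 h and -0.99 and -0.83 at 48 h. At 24 h the sign of 12 of the 42 members turned without control 24 h replicate 2, which gives the same 24 h values as either block (13.8% of all features turned), and the median went from 0.021 to -0.037. Of the 12 members followed over all alternatives, 4 turned at 1 of the times, GINS2 at 24 h (-0.049 with either block, with replicates 1 and 3 alone or without control 24 h replicate 2; up to 0.17 without control 24 h replicate 3), RRM1 at 24 h (0.016, 0.022 and 0.079), RRM2 at 48 h (0.015 and 0.017, down to -0.24 without control 48 h replicate 1) and POLE at 48 h (-0.0061, up to 0.30 without control 48 h replicate 4), as the report gives them. The cause was not tested. The second list gave 4, 11 and 14 calls at 24 h, at 48 h and for the average with the block within each time. Limits remain. With 2 or 3 arrays in a group, changes under about 1.5-fold often cannot be called, probes near 7.409 have compressed changes, and a fit using only the groups compared was not applicable to the average and the difference.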
